A study of Mus musculus with 36 samples.

Results

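RNA of mouse embryos at the 2-cell stage was compared between 7 libraries labelled Ctrl and 4 labelled NI, across all genes. These 11 libraries are all the 2-cell libraries of those treatments among the 36 of the series, which also holds 6 KRAB libraries at the 2-cell stage, and 6 Ctrl, 6 NI and 7 VP64 libraries at the 8-cell stage. Treatment and stage labels set the groups. All carry the tissue label embryo and total RNA, and the labels' protocol speaks of injection for every library, without saying what Ctrl embryos received and without spelling out NI. The sources used here give no strain, genotype or embryo age in hours. Each library pooled 4 to 5 embryos and its cDNA was amplified with SMART-seq v4, a kit for very small amounts of RNA. No label says that the pools came from separate collections, so a p-value reflects only pool-to-pool spread, part of which may be technical. The title of the series concerns LINE-1, a retrotransposon family, and Ctrl against NI compares its 2 groups that carry neither the KRAB nor the VP64 label.

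The mouse egg enters development with a store of messenger RNA made in the oocyte. Around the 2-cell stage this maternal store is degraded, in part after removal of poly(A) tails, while the embryo's own genome is switched on in a minor and then a major wave. Genes of ribosomes and ribosome assembly are among those made in the major wave, and genes such as the Zscan4 family mark the activation itself. Levels of maternal and zygotic transcripts therefore depend on how far a pool of embryos has advanced.

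Libraries of one group were not alike. Total counts ran from 1043740 to 10035066 in Ctrl and from 1376619 to 4962006 in NI. Correlations of log2 expression across genes were 0.859 to 0.968 among Ctrl libraries 1, 3, 5 and 7, but only 0.514 to 0.756 between these and Ctrl 2, 4 and 6. Ctrl 2 and 4 correlated at 0.885 to 0.928 with NI 2 and 4, and Ctrl 6 at 0.843, 0.814, 0.815 and 0.754 with NI 1 to 4, whereas NI 1 and 3 reached 0.662 to 0.775 with NI 2 and 4. Numbers only name libraries, in accession order, and no label explains the split. Genes with at least 1 count averaged 14716 ± 1413 (SD, n = 7) in Ctrl and 14340.2 ± 1179 (SD, n = 4) in NI (exact two-sided permutation p = 0.664, Benjamini-Hochberg adjusted p = 0.83 over 5 library measures).

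No gene passed the test between Ctrl and NI. With edgeR's quasi-likelihood test fitted on all 17 libraries of the stage, 0 of 11799 genes had an adjusted p under 0.05 (0%), and the smallest was 0.121. Values under 0.05 before adjustment numbered 1743 for genes higher in Ctrl (14.8% of those tested) and 1013 for genes lower in Ctrl (8.59%). All 7 Ctrl libraries lay above all 4 NI libraries for 51 genes (0.432%) and below them for 53 (0.449%). The outcome depended on the tool and on 1 library. DESeq2 called 1086 genes and limma-voom with quality weights 5993. Without Ctrl library 6, edgeR called 605 genes higher (5.11%) and 769 lower (6.49%), while leaving out any other single library gave 0. Without Ctrl libraries 1, 3, 5 and 7 it called 0, with 433 genes under 0.05 before adjustment. Such fits are given beside the genes only where they turn a direction or decide a value.

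**Figure D1:**
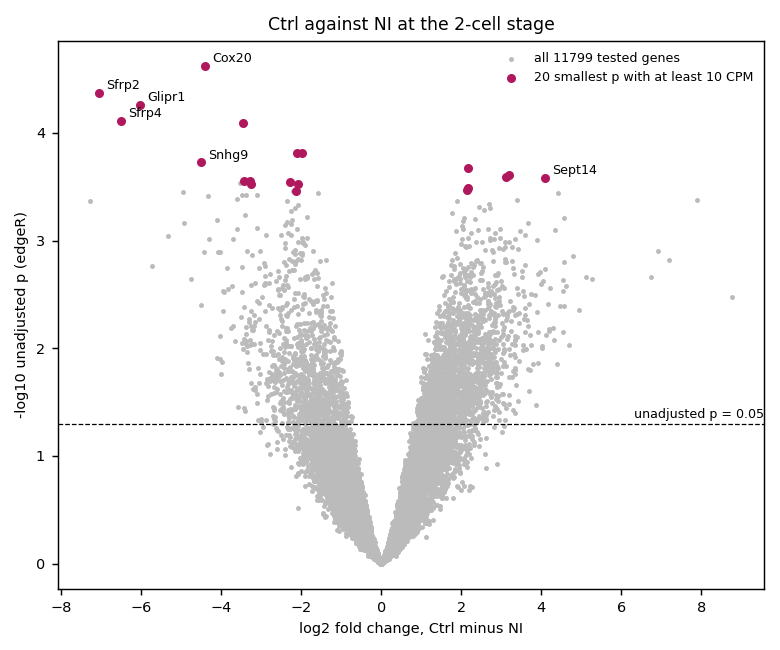
The log2 fold change of Ctrl minus NI (x axis) is plotted against the −log10 unadjusted p of edgeR (y axis) for all 11799 tested genes in grey. The 20 named genes are in purple and the dashed line marks an unadjusted p of 0.05. The largest differences among the named genes lie on the side lower in Ctrl.

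The genes named next are the 20 with the smallest p-values among those averaging at least 10 CPM (counts scaled to the TMM-adjusted library total) in either group. None passed adjustment, and each has an adjusted p of 0.121 by edgeR, so they are given as values. All 20 passed 0.05 with DESeq2 and with edgeR without Ctrl 6. With all 36 libraries in the fit 19 passed, as they did without Ctrl 6 and NI 3, the Ctrl and NI libraries under 1500000 counts. With limma-voom quality weights 18 passed. These refits use the counts that chose the 20 genes, so such passes were likely in advance and are no separate evidence. Over all genes the same fits called 1086, 1374, 559, 950 and 5993, in that order. In 14 the Ctrl mean was the lower and in 6 the higher. In 7 of the 20 the groups did not overlap, which the choice by smallest p makes likely. Over all tested genes the share was 0.432% with Ctrl above NI and 0.449% with Ctrl below.

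Among these 20 the largest log2 differences were in 3 genes for secreted proteins. Sfrp2 (chr3:83766321-83774316, GRCm38) encodes a secreted protein that binds Wnt ligands. It gave 44.7, 16.6, 0 and 6.13 CPM in NI libraries 1 to 4, and 0 to 0.304 CPM in Ctrl (median 0), where 4 of the 7 libraries had no count. Its log2 difference was -7.06 ± 1.35 (SE). Over the pooled counts, 155 in NI against 4 in Ctrl, NI was 135 times as high, with a 95% counting interval of 51.6 to 501. Such intervals cover counting error only and leave out the spread between libraries. Its relative Sfrp4 (chr13:19623104-19632994) gave 6.63, 22.5, 0 and 24.2 CPM in NI, while 6 of the 7 Ctrl libraries had no count and Ctrl 7 had 0.558 CPM. The pooled ratio was 138 (62.4 to 379), from 238 counts in NI and 6 in Ctrl. Glipr1 (chr10:111985448-112002631), a gene of the cysteine-rich secretory protein family, gave 2.49, 28.1, 0 and 11.7 CPM in NI and 0 to 0.462 CPM in Ctrl (median 0.126). In all 3 genes NI library 3 had no count, so that the groups overlapped at 0, and the other NI libraries lay above every Ctrl library. KRAB libraries ran from 0 to 16.5 CPM for Sfrp2, so a group with another label also held libraries with and without the transcript.

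Sfrp2 had the largest log2 difference of the 20, and the 150 bases before its annotated start are shown for reference (RefSeq, GRCm38.p6, chr3:83766171-83766320, plus strand). Capitals in this and the later sequences mark, on either strand, the TATA box letters TATAAA, the CCAAT box letters, or GGGCGG, the letters of a GC box.
Sfrp2: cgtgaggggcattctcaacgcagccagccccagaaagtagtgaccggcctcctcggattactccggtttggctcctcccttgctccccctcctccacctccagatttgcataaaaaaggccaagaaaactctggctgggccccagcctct
None of these motifs occurs in that stretch. Among 32851 RefSeq promoters, 7.57% hold TATAAA, 24.5% CCAAT and 28.6% GGGCGG in the same window.

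Sfrp2 and Sfrp4 are also in the list of 48 stromal and matrix marker genes. Its summed level was 90.2 to 399 CPM in Ctrl and 1091, 359, 317 and 175 in NI 1 to 4, so only NI 1 lay above the Ctrl range. The defining collagens Col1a2 and Col3a1 had no count in any of the 11 libraries. Col1a1 had 3 counts in Ctrl and 2 in NI, Dcn 12 and 0, and Pdgfra, a receptor of mesenchymal cells, 88 and 4, up to 4.26 CPM in Ctrl and 1.66 in NI. Other genes of that list are S100a6, a calcium-binding protein, at 529.5, 16.1, 157 and 11.6 CPM in NI against 0 to 17.5 CPM in Ctrl (median 7.41), and Lgals1, the galectin named below. Mmp2, also of that list, went the other way, with a mean of 130.5 CPM in Ctrl and 39.2 in NI. Of the list's 20 tested genes 8 had higher Ctrl values and 12 lower. The oviduct epithelium list of 30 genes summed to 679, 1405, 135 and 848 CPM in NI 1 to 4 and to 97.4 to 556 in Ctrl. Much of the sum in NI 1, 2 and 4 was Clu and Epcam. Clu, a secreted chaperone, gave 236, 869, 0 and 363 CPM in NI and 1.26 to 88.1 CPM in Ctrl (median 10.8). Epcam gave 337, 374, 44.7 and 343 CPM in NI and 2.89 to 374 CPM in Ctrl (median 25.8). NI 3, which lacked Sfrp2, Sfrp4 and Glipr1, also lacked Clu. The defining oviduct genes were near 0: Pax8 had 1 count in NI and 0 in Ctrl, Foxj1 had 2 and 3, and Ovgp1 reached 3.32 CPM in NI and 5.65 in Ctrl. The part of cells other than the embryo's in these results was not tested, and in pooled samples fewer cells of a type and less RNA per cell cannot be told apart.

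2 nuclear-retained or noncoding RNAs were among the 14. Malat1 (chr19:5795690-5802672), an abundant noncoding RNA of nuclear speckles, gave 3702, 1208, 601 and 884 CPM in NI and 39.9 to 449.6 CPM in Ctrl (median 125). The groups did not overlap, with Ctrl 6 nearest to NI 3, and the log2 difference was -3.43 ± 0.78 (SE). Snhg9 (chr17:24719531-24719965), a host transcript of small nucleolar RNAs, gave 43.1, 7.16, 27.02 and 2.21 CPM in NI and 0.121 to 5.98 CPM in Ctrl (median 0.503). The highest Ctrl library, Ctrl 6, lay above NI 4. The pooled counts were 122 in NI and 20 in Ctrl, a ratio of 21.2 (counting interval 13.1 to 35.9, without the spread between libraries).

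Snhg9 starts 97 bases from Rps2, a ribosomal protein gene on the opposite strand, and the bases between the RefSeq transcript starts show how close they are (RefSeq, GRCm38.p6, chr17:24719966-24720062, plus strand).
Snhg9 and Rps2: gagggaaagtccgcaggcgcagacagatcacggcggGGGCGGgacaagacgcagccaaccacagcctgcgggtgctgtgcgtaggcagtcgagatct
The neighbours differed in size of difference. Rps2, chosen after its values were seen as the neighbour of Snhg9, gave 249, 394, 184 and 305 CPM in NI and 67.98 to 500.2 CPM in Ctrl (median 184), a log2 difference of -0.13 ± 0.52 (SE) with an edgeR adjusted p of 0.903, whose sign turned to 0.14 without Ctrl 1, 3, 5 and 7. GENCODE's gene record of Rps2 (chr17:24718116-24721929) also holds a transcript that starts further upstream and spans Snhg9, and the sources used here do not say whether counting used strand, so their reads may not be fully separate. For 2 other host transcripts, chosen after their values were seen, Snhg8 gave 51.4, 9.97, 63.4 and 4.43 CPM in NI and 0.607 to 9.57 CPM in Ctrl (median 2.01), and Snhg1 38.1, 9.97, 13.04 and 6.64 and 0 to 17.9 CPM in Ctrl (median 7.72).

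3 of the 14 genes act in mitochondria. Cox20 (chr1:178319130-178322693), an assembly factor of cytochrome c oxidase, gave 38.9, 2.30, 3.73 and 4.77 CPM in NI and 0.121 to 1.20 CPM in Ctrl (median 0.607). Every Ctrl library lay below every NI library, and the log2 difference was -4.41 ± 0.81 (SE), the smallest p of all genes (2.37e-05). Chchd10 (chr10:75933130-75937747), a protein of the intermembrane space, gave 892, 106, 219.9 and 44.3 CPM in NI and 7.01 to 74.4 CPM in Ctrl (median 27.3), with 1 NI library inside the Ctrl range. Cox6b2 (chr7:4751792-4753094), a testis-type oxidase subunit, gave 1753, 124, 3061 and 43.1 CPM in NI and 42.5 to 199.7 CPM in Ctrl (median 140.1). NI 1 and 3 were far above all Ctrl libraries and NI 2 and 4 within their range; without NI 1 and 3 the log2 difference turned from -3.28 to 0.62, the only reversal among the 20 genes.

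The other 6 genes with lower Ctrl values have varied roles. Dmwd (chr7:19076227-19082776), a WD-repeat protein, gave 86.2, 33.2, 44.7 and 28.8 CPM in NI and 7.59 to 17.9 CPM in Ctrl (median 10.9), with no overlap. Gadd45b (chr10:80930073-80932204), a stress-induced gene linked to DNA demethylation and repair, gave 155, 78.97, 69.9 and 74.2 CPM in NI and 7.28 to 45.3 CPM in Ctrl (median 18.97), also without overlap. Lgals1 (chr15:78926725-78930465), which encodes galectin-1, gave 354, 81.8, 42.9 and 16.7 CPM in NI and 3.69 to 22.7 CPM in Ctrl (median 10.9). Only NI 4 lay inside the Ctrl range. Eif3j1 (chr2:122028546-122056598), a subunit of translation initiation factor 3, gave 1106, 339, 802 and 926 CPM in NI and 93.2 to 352 CPM in Ctrl (median 158). Rsbn1l gave 131, 23.3, 90.4 and 56.3 CPM in NI and 6.41 to 33.3 CPM in Ctrl (median 10.5), and Erbb2ip, an adaptor of epithelial junctions, 34.8, 8.69, 56.8 and 25.5 and 4.55 to 10.8 CPM in Ctrl (median 6.93). For each of these last 3 genes, 1 NI library fell within the Ctrl range.

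**Figure D2:**
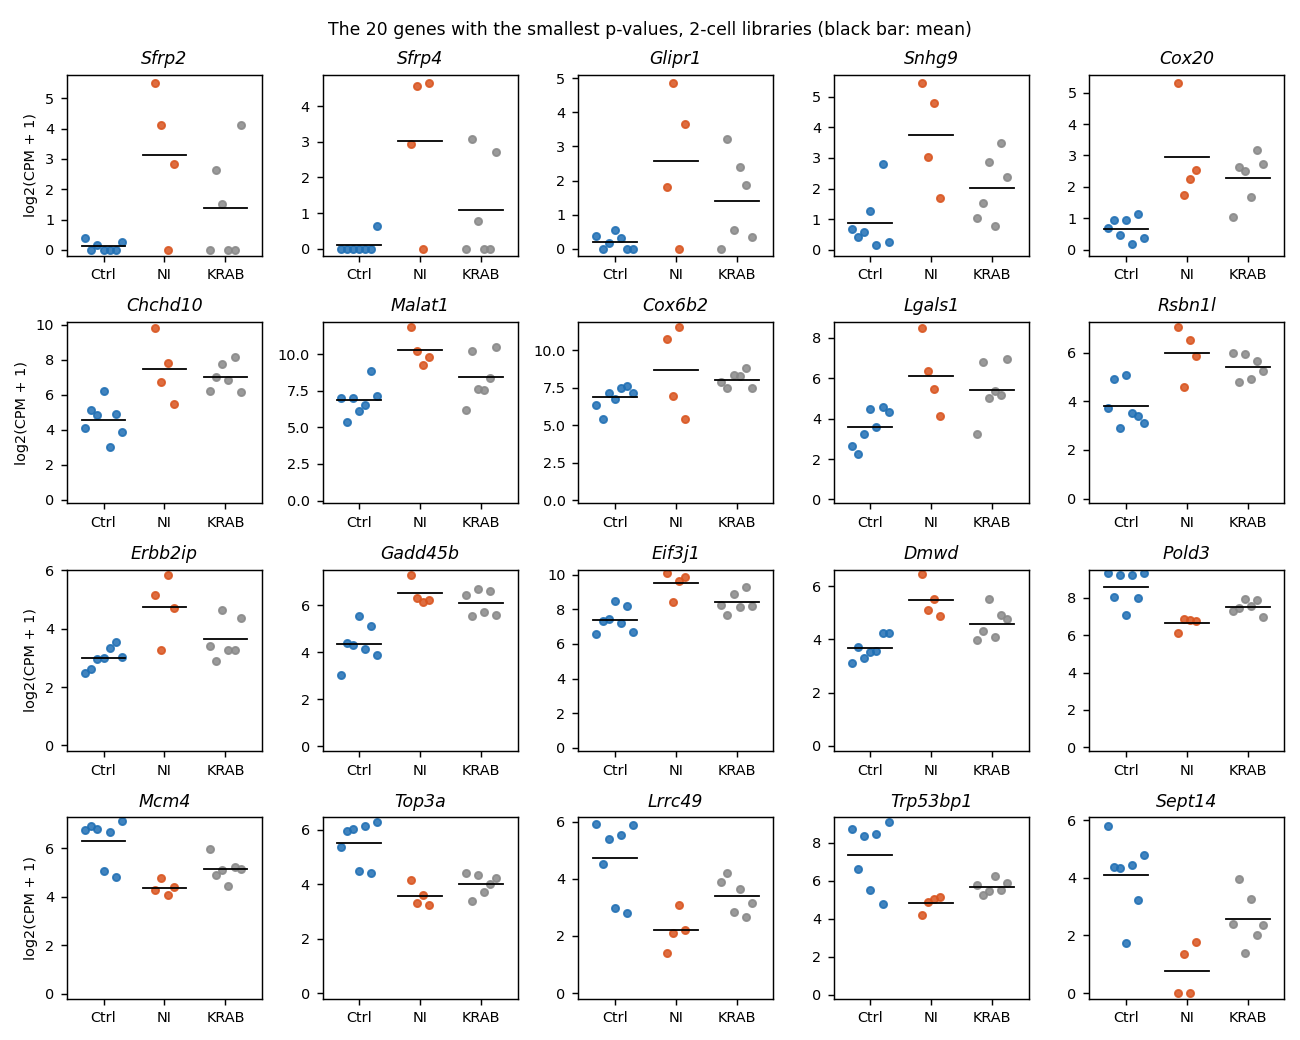
Each panel shows 1 of the 20 named genes as log2(CPM + 1) (y axis) in every Ctrl, NI and KRAB library of the 2-cell stage, points in replicate order and the black bar the mean of the log2 values. Panels run from the most negative to the most positive log2 fold change of Ctrl minus NI. NI library 3 lies at 0 for Sfrp2, Sfrp4 and Glipr1.

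Of the 6 genes with higher Ctrl values, 4 act in DNA replication or repair. Mcm4 (chr16:15623897-15637400), a subunit of the replicative helicase, gave 18.2, 26.6, 15.8 and 20.3 CPM in NI and 27.5 to 138 CPM in Ctrl (median 106). Pold3 (chr7:100082111-100121565), a subunit of DNA polymerase delta, gave 69.6, 117, 112 and 107 CPM in NI and 135 to 647 CPM in Ctrl (median 586). Top3a (chr11:60740058-60777365), a topoisomerase that resolves recombination intermediates, gave 16.6, 8.95, 11.2 and 8.51 CPM in NI and 20.3 to 77.2 CPM in Ctrl (median 60.4). In these 3 genes no Ctrl library overlapped NI, and Ctrl 4 and 6 were the Ctrl libraries nearest to NI in each. Their log2 differences were 2.16 ± 0.50 (SE), 2.13 ± 0.50 (SE) and 2.18 ± 0.48 (SE). Trp53bp1 (chr2:121193281-121271407), the double-strand break factor 53BP1, gave 17.4, 28.9, 31.7 and 34.2 CPM in NI and 26.3 to 541 CPM in Ctrl (median 320.5). Ctrl 1, 3, 5 and 7 held 320.5 to 541 CPM, and Ctrl 6 fell inside the NI range; without Ctrl 1, 3, 5 and 7 the log2 difference was 0.98 ± 0.47 (SE) in place of 3.20 ± 0.72 (SE). Lrrc49 (chr9:60568859-60688158), a partner of tubulin-modifying enzymes, and the septin gene Sept14 (chr5:129683391-129708512) followed with 1.66, 3.32, 7.45 and 3.57 and 0, 1.53, 0 and 2.38 CPM in NI. In Ctrl, Lrrc49 ran from 5.98 to 59.5 CPM (median 40.7) and Sept14 from 2.31 to 54.9 CPM (median 19.9), and Ctrl 4 lay below the highest NI library for both.

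Mcm4 and Pold3 belong to the DNA replication list. Of its 52 tested genes 39 had higher Ctrl values, against 52.3% of all genes, and the median log2 difference was 0.52 against 0.068 for all genes. Unadjusted p-values under 0.05 were met by 11 of the 52 genes in the higher direction (background 14.8%) and 0 in the lower (background 8.59%), and adjusted ones by 0. The list's mean log2(CPM + 1) was 5.40 to 6.18 in Ctrl and 4.95 to 5.63 in NI. The members with the highest CPM had log2 differences near 0 whose sign changed with the setting. Gmnn, the inhibitor of replication licensing, gave 336, 586, 544 and 635 CPM in NI and 289 to 1168 CPM in Ctrl (median 439), and Dbf4, an activator of the kinase that fires origins, 227, 491, 605 and 537 and 352 to 728 CPM in Ctrl (median 449).

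KRAB libraries were set beside both groups. Over all 11799 genes, edgeR's unadjusted p was under 0.05 for 368 between KRAB and NI and for 1838 between KRAB and Ctrl. None passed adjustment in either. KRAB was not between the groups throughout. The list of zygotic genome activation had a median log2 difference of 0.46 for KRAB minus NI and 0.36 for KRAB minus Ctrl. For all 20 named genes the KRAB mean was between the Ctrl and NI means, which the choice of genes at the extremes of Ctrl against NI makes likely, and none passed the test in either comparison with KRAB. At the 8-cell stage 14 of the 20 passed the filter on low counts, 9 with the same sign of Ctrl minus NI as at the 2-cell stage, and edgeR called 0 of 9850 genes between Ctrl and NI (0%; 429 under 0.05 before adjustment, 1 called by DESeq2). Malat1 had a log2 difference of 0.44 there and Cox20 of -0.0094. The difference of the Ctrl against NI effect between the stages was called for 0 of 13158 genes (0%) by edgeR, with a smallest adjusted p of 0.0522 and 2680 genes under 0.05 before adjustment, and for 690 by DESeq2. Among the 20 genes the smallest adjusted p of that difference was 0.0732, for Pold3.

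Maternal transcripts had higher values in 4 of the 7 Ctrl libraries. The maternal list of 85 tested genes holds oocyte genes such as the zona pellucida, Nlrp and Tcl1 families. Its mean log2(CPM + 1) was 8.57, 8.16, 8.41 and 8.41 in Ctrl 1, 3, 5 and 7, but 6.51, 5.88 and 6.42 in Ctrl 2, 4 and 6, and 5.83, 6.53, 7.27 and 6.05 in NI 1 to 4. The first 4 lay above every NI and KRAB library, and the other 3 within the NI range. Of the 85 genes 66 had higher Ctrl values, with a median log2 difference of 1.44 against 0.068 over all genes; 41 had an unadjusted p under 0.05 in that direction (background 14.8%), 0 in the other, and 0 passed adjustment. Without Ctrl 1, 3, 5 and 7 the median was -0.050, with 35 of 85 positive. Without Ctrl 6, 17 of the 85 were called higher (20%, against 5.11% of all genes) and 0 lower. The part of poly(A) tails in the values of this list was not tested.

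Single maternal genes showed the same split, some of them only in part. Zbed3, a protein of the oocyte's subcortical complex, gave 1279, 3054, 7079.9 and 1712 CPM in NI and 20407, 20316, 24848 and 22499 in Ctrl 1, 3, 5 and 7, but 4695, 2246 and 948 in Ctrl 2, 4 and 6. Btg4, the adaptor that brings the deadenylase to maternal RNA, gave 206, 1045, 539 and 863 CPM in NI and 536 to 7386 CPM in Ctrl (median 4347), and Cnot7, a deadenylase subunit, 91.98, 237, 199 and 576 and 160.2 to 1918 CPM in Ctrl (median 1341). Ctrl 2, 4 and 6 lay within the NI range of Btg4. Tcl1, an oocyte factor that is also in the pluripotency list, gave 593, 4227, 1305 and 1313 CPM in NI and 1273 to 16805 CPM in Ctrl (median 5806), and Ccnb1, the mitotic cyclin, 416, 1222, 575 and 1514 and 502 to 5495 CPM in Ctrl (median 2982). For Cnot7, Tcl1 and Ccnb1, Ctrl 2 lay above every NI library, at 851, 4992 and 1774 CPM. Other maternal genes did not share the split. Omt2b gave 15032, 4229, 31084 and 2319 CPM in NI and 2352 to 31486 CPM in Ctrl (median 4190.1), and Dppa3, which protects DNA methylation in the zygote, 6856, 3042, 14442 and 2060.01 and 1789.6 to 22530.5 CPM in Ctrl (median 2942); the Ctrl maximum of both was in Ctrl 6.

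**Figure D3:**
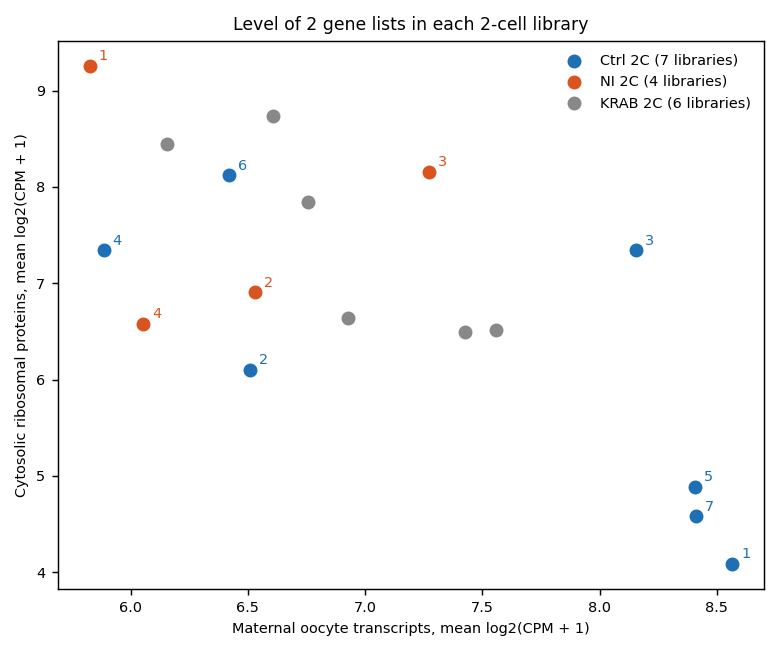
Each point is a 2-cell library, placed by the mean log2(CPM + 1) of the maternal oocyte list (x axis) and of the cytosolic ribosomal protein list (y axis), with Ctrl and NI libraries numbered. Ctrl 1, 3, 5 and 7 lie at 8.16 or more on the x axis, beyond every other library, and Ctrl 1, 5 and 7 are lowest on the y axis.

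Ribosomal protein genes had lower Ctrl values, in a pattern that also divided NI. The list mean was 9.26, 6.91, 8.16 and 6.58 in NI 1 to 4. In Ctrl it was 4.09, 4.89 and 4.58 in libraries 1, 5 and 7, and 6.10, 7.34, 7.34 and 8.12 in libraries 2, 3, 4 and 6. Of 81 genes 76 had lower Ctrl values, with a median log2 difference of -1.55; 37 had an unadjusted p under 0.05 in that direction (background 8.59%), 0 in the other, and 0 passed adjustment. Without NI 1 and 3 the median was 0.071, and without Ctrl 6 it was -2.32, with 26 of 81 genes called lower (32.1%, against 6.49% of all genes). Rpl41 gave 5969.8, 664, 1754 and 407 CPM in NI and 38.8 to 2151 CPM in Ctrl (median 391). Rps27, chosen after its values were seen, gave 1837, 175, 323 and 98.2 CPM in NI and 2.43 to 432 CPM in Ctrl (median 47.4), with Ctrl 1, 5 and 7 under 10 CPM. Rps27l, a p53-induced relative, gave 3122, 244, 2724 and 218 and 178 to 1488 CPM in Ctrl (median 347). RSEM divides reads among near-identical copies, and ribosomal proteins have many pseudogenes, so single values are uncertain.

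Genes of ribosome assembly had a median of -0.21, with 24 of 65 higher, 0 and 3 under an unadjusted p of 0.05 in the higher and lower direction (backgrounds 14.8% and 8.59%), and 0 called. Their mean level was 4.43, 4.86 and 4.55 in Ctrl 1, 5 and 7, below all NI libraries (5.34 to 6.55), and 6.09 to 6.99 in the other Ctrl libraries. Nip7, a factor of large-subunit assembly, gave 3248, 941, 3417 and 670.05 CPM in NI and 168 to 3309 CPM in Ctrl (median 328), and Npm1, the nucleolar chaperone, 1517, 874, 2196 and 1585 and 389 to 1613 CPM in Ctrl (median 984).

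Nuclear genes of oxidative phosphorylation resembled the ribosomal list. Of 77 genes 62 had lower Ctrl values, with a median of -1.56; 34 had an unadjusted p under 0.05 in that direction (background 8.59%) and 5 in the other (background 14.8%), and 0 passed adjustment. Their mean level was 7.38, 5.36, 6.19 and 4.94 in NI 1 to 4, and 4.28 to 5.50 in Ctrl apart from Ctrl 6 at 6.57. Without Ctrl 6, 41 of 77 were called lower (53.2%, against 6.49% of all genes) and 2 higher (2.6%, against 5.11%), and the median was -0.36 without NI 1 and 0.21 without NI 1 and 3. Cox8a, an oxidase subunit, gave 3435, 383, 4151 and 183 CPM in NI and 153 to 903 CPM in Ctrl (median 404). Atp5g1, a subunit of the ATP synthase, gave 3819, 389, 726 and 297 CPM in NI and 67.8 to 2425 CPM in Ctrl (median 179), again with its Ctrl maximum in Ctrl 6.

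Short transcripts moved with these lists, and the short genes and the lists share members. Rpl41 (695 bases), Rps27 (672), Rps27l (575) and Cox8a (550) are in both, and the short genes without the lists were not examined. Genes whose longest GENCODE transcript is under 1000 bases took 14%, 4.6%, 11.4% and 3.49% of the counts of tested genes with a known length in NI 1 to 4, and 2.5% to 4.9% in Ctrl apart from Ctrl 6 at 10.4%. Ctrl 6, NI 1 and NI 3, which hold the most, have totals of 1043740, 1544939 and 1376619 counts. Ctrl 4, with 1543640 counts, held 4.9%, and KRAB 3 and 5, with 4336022 and 2699308, held 10.8% and 12.3%. The part of library totals in these shares was not tested. Of 550 such genes 16.5% had higher Ctrl values, with a median log2 difference of -1.18, against 58.5% and 0.25 among 4658 genes of 2000 bases to under 4000. Without NI 1 and 3 the median of the short genes was 0.23, and without Ctrl 1, 3, 5 and 7 it was -0.65. The comparison by length was chosen after the data were seen, and the part of transcript length in the differences of the ribosomal, mitochondrial and histone genes was not tested.

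Replication-dependent histone genes, which are packed in clusters and made in S phase, had high CPM in the same NI libraries. This group was also chosen after its values were seen. Their summed level was 2017, 125, 1888 and 49.2 CPM in NI 1 to 4 and 102 to 231 CPM in Ctrl. NI 1 and 3 were above all Ctrl libraries, and NI 4 below them. Hist1h2ao gave 1696, 83.3, 1278 and 36.1 CPM in NI and 15.7 to 111 CPM in Ctrl (median 79.9), and Hist1h4c 37.3, 1.02, 83.9 and 0.681 and 0 to 10.8 CPM in Ctrl (median 5.90). Hist1h2ao alone made up most of the summed level of NI 1 and 3. The parts of S phase and of poly(A) tails in these values were not tested, so they are CPM of this cDNA and not measured amounts of histone RNA. Of 14 tested genes 13 had lower Ctrl values, with a median of -1.24, which turned to 2.15 without NI 1 and 3 and to 0.044 without NI 3 alone. These genes are near-identical, so values of single members are uncertain. Top1, the topoisomerase that relaxes supercoils ahead of polymerases, was chosen after its values were seen, for being high in these libraries, and gave 1926, 232, 1784 and 363 CPM in NI and 152 to 330.03 CPM in Ctrl (median 249.6).

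The promoter of Hist1h2ao, which has the highest counts of the histone group, is shown with its CCAAT letters (RefSeq, where the gene is H2ac23, GRCm38.p6, chr13:21810217-21810366, plus strand). That of Rps27 is set beside it, as a ribosomal gene whose NI 1 value was also the highest (chr3:90213649-90213798, minus strand).
Hist1h2ao: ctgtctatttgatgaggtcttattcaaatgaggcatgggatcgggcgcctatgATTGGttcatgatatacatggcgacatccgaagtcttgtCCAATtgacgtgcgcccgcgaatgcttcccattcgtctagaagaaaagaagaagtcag
Rps27: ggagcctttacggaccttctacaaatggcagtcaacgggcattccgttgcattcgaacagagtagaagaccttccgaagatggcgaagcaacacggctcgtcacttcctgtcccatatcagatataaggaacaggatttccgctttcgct
In the window shown, 10 of the 12 tested histone genes with a RefSeq promoter hold CCAAT (83.3%), against 24.5% of all promoters and 14 of 60 ribosomal protein genes (23.3%). The 150 bases before Rps27 hold none of the 3 motifs.

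**Figure D4:**
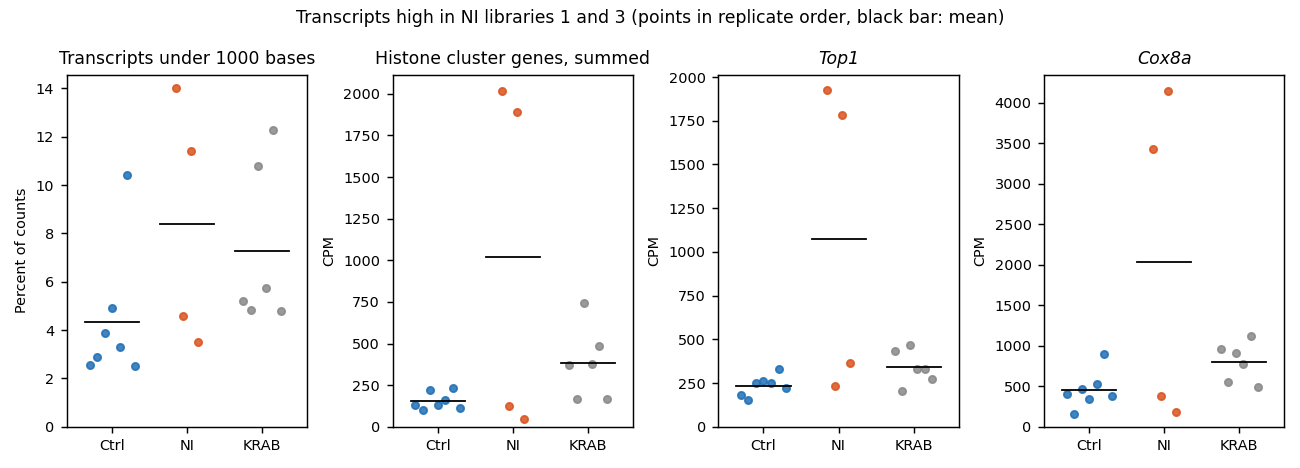
The panels show, for every 2-cell library, the percent of counts in genes with transcripts under 1000 bases, the summed CPM of the histone cluster genes, and the CPM of Top1 and Cox8a, with points in replicate order and the mean as a black bar. NI 1 and 3 are the highest NI libraries in each panel and Ctrl 6 the highest Ctrl library; 1 KRAB library, at 12.3%, lies above NI 3 in the first panel.

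Genes of zygotic genome activation showed no shared direction. Of 58 genes 26 had higher Ctrl values, with a median of -0.19 (9 and 3 under an unadjusted p of 0.05 in the higher and lower direction, against backgrounds of 14.8% and 8.59%, and 0 called). The list mean was 5.18 to 6.06 in Ctrl and 4.80 to 6.24 in NI. Obox5, a homeobox gene of this list, gave 152, 728, 1047 and 591 CPM in NI and 411 to 4043 CPM in Ctrl (median 3147). It showed the split of the maternal list, with 3211, 3147, 4043 and 3351 CPM in Ctrl 1, 3, 5 and 7 and 411, 498 and 838 in Ctrl 2, 4 and 6. Klf17, a zinc finger factor, gave 304, 957, 675 and 851 CPM in NI and 402 to 3511 CPM in Ctrl (median 1737). Zscan4c, an activation marker chosen after its values were seen, gave 0, 108, 23.3 and 57.9 CPM in NI and 46.6 to 531 CPM in Ctrl (median 137). NI 1 had the lowest value in each of these 3 genes, and the Zscan4 and Obox families share sequence, which makes single values uncertain.

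Wnt pathway genes gave a list mean of 4.17, 4.06, 4.04 and 4.05 in NI 1 to 4, above the 3.44 to 3.92 of Ctrl, while KRAB ran from 3.42 to 4.43. Sfrp2 and Sfrp4 are members, and both were among the 20 genes chosen by smallest p in this same comparison. They raise the list mean of the NI libraries that hold them, and the mean without them was not computed. Of 31 tested genes 18 had lower Ctrl values, with a median of -0.17; 8 had an unadjusted p under 0.05 in the lower direction (background 8.59%) and 1 in the higher (background 14.8%), and 0 passed adjustment. The members with the highest CPM were Csnk1a1, a kinase of the beta-catenin destruction complex, at 100.3, 221, 176 and 328 CPM in NI and 119.6 to 514 CPM in Ctrl (median 375), and Rspo2, a secreted enhancer of Wnt signals, at 143, 98.1, 170.5 and 152 and 89.6 to 347 CPM in Ctrl (median 218). Both had higher Ctrl means, opposite to Sfrp2 and Sfrp4, but their log2 differences turned to -0.089 and -0.19 without Ctrl 1, 3, 5 and 7.

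Chromatin and retrotransposon control genes had members on both sides. The median was -0.17 for 61 genes of DNA and histone methylation, -0.025 for 50 genes of chromatin assembly and 0.22 for 49 genes of retrotransposon silencing (0.54 without NI 1 and 3), with 0 called in each. Unadjusted p-values under 0.05 were met by 6, 3 and 8 of their genes in the higher direction (background 14.8%) and by 4 in the lower in each (background 8.59%). Cbx3, a heterochromatin protein, gave 749, 918, 158 and 3781 CPM in NI and 19.4 to 967 CPM in Ctrl (median 184), with NI 4 highest and a log2 difference of -2.08 ± 0.98 (SE), edgeR adjusted p 0.208. Tex19.1, which restrains LINE-1 mobility in germ cells, gave 67.1, 425, 26.1 and 275 and 60.98 to 449.99 CPM in Ctrl (median 183). Pcna, the replication clamp, gave 73.8, 236, 112 and 264 CPM in NI and 131 to 450.4 CPM in Ctrl (median 236). Histone variant genes H3f3b and H2afz gave 1141, 1869, 1113 and 3279.8 and 443, 1179, 546 and 2617 CPM in NI, against 1314 to 5928 CPM (median 1899) and 96.2 to 2574 CPM (median 331) in Ctrl.

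Stress and defence genes gave list medians of -0.15 for 34 interferon and sensing genes, -0.029 for 39 p53 and DNA damage genes and 0.087 for 53 stress genes, with 0 called. Xaf1, an interferon-induced gene, gave 2498, 368, 1694 and 129.9 CPM in NI and 39.6 to 2647 CPM in Ctrl (median 86.3); NI 1, NI 3 and Ctrl 6 were the high libraries. Sp110 gave 716, 770.04, 870.2 and 461 and 201 to 680.4 CPM in Ctrl (median 488). Mdm4, an inhibitor of p53, gave 2222, 1014, 1699 and 1070.00 CPM in NI and 777 to 2832 CPM in Ctrl (median 973), and the checkpoint kinase gene Chek1 58.8, 178, 319 and 528 and 172 to 584 CPM in Ctrl (median 437). The chaperones Hsp90ab1 and Hsp90aa1 gave 942, 473, 1234 and 461 and 1039, 591, 1170.2 and 659.7 CPM in NI, against 428 to 1637 CPM (median 696) and 309.6 to 1222 CPM (median 586) in Ctrl.

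Remaining lists of embryo biology also had 0 genes called. The median was 0.48 for 34 genes of glycolysis, lactate and pyruvate use, 0.37 for 45 of deadenylation, 0.31 for 38 of trophectoderm and polarity, 0.13 for 28 of pluripotency and 0.11 for 53 of mitosis. Ldhb, a lactate dehydrogenase subunit, gave 346, 971, 811 and 348 CPM in NI and 244 to 6353 CPM in Ctrl (median 2041), and Mpc1, of the mitochondrial pyruvate carrier, 182, 354, 349 and 536 and 54.1 to 820.3 CPM in Ctrl (median 171). Pard3, a polarity protein, gave 177, 154, 253 and 106 CPM in NI and 161 to 752 CPM in Ctrl (median 613). Yap1, the Hippo pathway coactivator, ran the other way with 391, 299, 1163 and 463 and 167 to 315 CPM in Ctrl (median 245). Pttg1, which encodes securin, gave 862, 729, 3456 and 359 CPM in NI and 397 to 5962 CPM in Ctrl (median 1867).

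**Figure D5:**
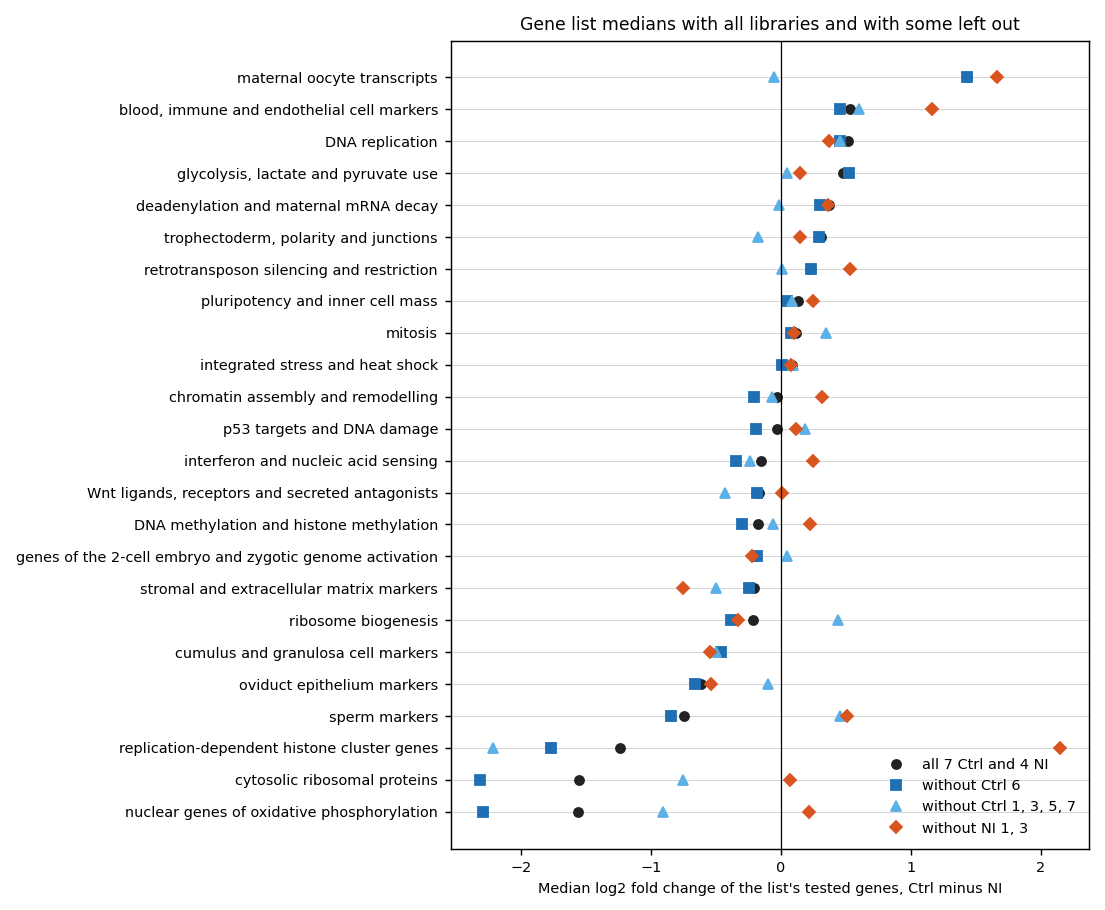
The median log2 fold change of Ctrl minus NI (x axis) is shown for each gene list (y axis) with all libraries (black circles), without Ctrl 6 (dark squares), without Ctrl 1, 3, 5 and 7 (light triangles) and without NI 1 and 3 (orange diamonds). The maternal median reaches 1.44 with all libraries and -0.050 without Ctrl 1, 3, 5 and 7, and the ribosomal median moves from -1.55 to 0.071 without NI 1 and 3.

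Markers of other cells were checked in every library. Cumulus and granulosa markers summed to 139 to 558 CPM in Ctrl and 133 to 374 in NI over 36 genes; Lhcgr and Amh had no count in the 11 libraries, Fshr had 2 in Ctrl and 0 in NI, and Foxl2 had 0 and 5, whereas Cyp11a1 reached 27.6 CPM in Ctrl and 25.7 in NI, and Cyp19a1 20.3 and 3.83. Esr2, an estrogen receptor, gave 19.9, 18.4, 36.3 and 8.51 CPM in NI and 9.24 to 116 CPM in Ctrl (median 86.3), and Serpine2 38.1, 115, 32.6 and 63.1 and 38.3 to 328 CPM in Ctrl (median 104). Blood, immune and endothelial markers summed to 94.7 to 246 CPM in Ctrl and to 1881, 127, 82.9 and 60.1 in NI 1 to 4 over 42 genes. Of the defining genes, Ptprc and Hbb-bs had no count, Cdh5 had 3 counts in NI and 0 in Ctrl, and Lyz2 had 7 and 4. Pecam1, an endothelial adhesion molecule, had counts in all 11 libraries, up to 74.4 CPM in Ctrl and 12.8 in NI. Most of the NI 1 sum was Cd52, a lymphocyte surface antigen, at 1744, 21.5, 7.45 and 2.89 CPM in NI and 0 to 14.3 CPM in Ctrl (median 0.745), and H2-Aa gave 18.2, 42.2, 26.1 and 11.6 and 4.62 to 117 CPM in Ctrl (median 65.5). Tmsb4x, an actin-binding peptide gene chosen after its values were seen, was likewise highest in NI 1, with 1624, 173, 8.39 and 73.01 CPM in NI and 1.52 to 81.3 CPM in Ctrl (median 3.77). Sperm markers summed to 106 to 300.2 CPM in Ctrl and 74.5 to 187 in NI over 28 genes; of the defining genes Tnp1 had no count, Prm1 had 2 in NI and 3 in Ctrl, Akap4 had 1 and 3, and Prm2, a protamine, had counts in all 11 libraries, up to 26.1 CPM in NI and 6.68 in Ctrl. Odf2 gave 57.2, 58.8, 123 and 41.2 CPM in NI and 31.1 to 276 CPM in Ctrl (median 202), and Ldhc 20.7, 7.16, 14.9 and 9.70 and 0.607 to 46.6 CPM in Ctrl (median 4.11). Of the other most abundant markers, Epcam gave 337, 374, 44.7 and 343 CPM in NI and 2.89 to 374 CPM in Ctrl (median 25.8), and Mmp2 13.3, 69.00, 54.97 and 19.6 and 27.7 to 243 CPM in Ctrl (median 149). The list medians were -0.48 for cumulus, -0.62 for oviduct, -0.20 for stromal, 0.54 for blood and -0.74 for sperm markers, with 0 genes called in each.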

How the data were processed

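RNA-seq of pooled mouse embryos was analysed from 1 table of expected counts per gene deposited by the authors, with 23845 gene symbols; Bowtie2, RSEM and mm10 are listed in the submitters' processing notes, and the sources used here give neither versions nor any use of strand. Expected counts were rounded to whole numbers. Genes were kept by edgeR's filter (10 counts, total of 15), scaled by TMM and tested with edgeR 4.0.16 (quasi-likelihood, robust) in R 4.3.3 over the 17 libraries of the 2-cell stage, with Benjamini-Hochberg adjustment at 0.05. CPM are relative to TMM-scaled totals. Totals ran from 1043740 to 10035066 counts, and counting intervals (95%, exact) cover counting error only. DESeq2 1.42.0, limma 3.58.1, other scalings and filters, and left-out libraries were alternatives. Scripts were tested on simulated data. The text names the 20 genes of smallest p with a group mean of at least 10 CPM and a name that is not a bare gene model, the 2 members of highest CPM in each list, and genes said to be chosen after their values were seen. Groups, members and lists were chosen with earlier results of these data known. A list level is the mean log2(CPM + 1) of its tested members. Coordinates are from GENCODE vM21 (GRCm38), matched by symbol for 74 of 75 named genes, and 95.8% of tested genes had a transcript length; sequences are from RefSeq (GRCm38.p6). No 2 Ctrl libraries, and no 2 NI libraries, agreed within sampling noise.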

Additional observations from a re-analysis of the deposited data

Results flagged for a closer look

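In 9 of 204 sets of values by group (4.41%), the highest or lowest library stood apart from the others of its group by Dixon's criterion, which chance meets in about 1 in 20. Ctrl 6 was the high library for Dppa3, with a log2(CPM + 1) of 14.46, for Xaf1 with 11.37, and for Snhg9 with 2.80. Ctrl 1 held 19.63% of its counts in Ccdc82, a gene chosen after its values were seen as the most abundant of each Ctrl library, against 8.346% in the next. Ctrl 7 was alone in Ctrl in having Sfrp4 counts, with a log2(CPM + 1) of 0.64. Among NI libraries, NI 1 was high for Gadd45b at 7.29 and low for Pold3 at 6.14 on the same scale. NI 3 was low for Epcam at 5.51 and for the mean level of ribosome biogenesis genes at 5.34.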

How the results depend on the processing

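The number of genes called between Ctrl and NI was 0 with edgeR's TMM, TMMwsp and RLE scaling, no or a strict filter on low counts, no robust option, and only the 11 libraries. It was 1086 with DESeq2, 5993 with limma-voom quality weights and 559 with all 36 libraries in the fit. It was 950 without Ctrl 6 and NI 3, the Ctrl and NI libraries under 1500000 counts. Leaving out single libraries gave 0 to 1374, the highest without Ctrl 6. DESeq2 called 690 genes for the difference between stages and 1 at the 8-cell stage. Detected genes differed by -251 after thinning to the smallest total, against 376. Leaving out Ctrl 1, 3, 5 and 7, or NI 1 and 3, was chosen after seeing the data. List medians moved without Ctrl 1, 3, 5 and 7 to -0.050 for maternal oocyte transcripts, 0.012 for retrotransposon silencing and restriction, -0.43 for Wnt ligands, receptors and secreted antagonists, -0.096 for oviduct epithelium markers, 0.45 for sperm markers, -0.17 for trophectoderm, polarity and junctions, 0.35 for mitosis and -0.013 for deadenylation and maternal mRNA decay. List medians moved without NI 1 and 3 to 0.071 for cytosolic ribosomal proteins, 0.21 for nuclear genes of oxidative phosphorylation, 0.22 for DNA methylation and histone methylation, 0.32 for chromatin assembly and remodelling, 0.54 for retrotransposon silencing and restriction, 0.25 for interferon and nucleic acid sensing, 0.0074 for Wnt ligands, receptors and secreted antagonists, -0.75 for stromal and extracellular matrix markers, 1.16 for blood, immune and endothelial cell markers, 0.51 for sperm markers and 2.15 for replication-dependent histone cluster genes. Over single left-out libraries, medians ran -2.29 to -0.36 for nuclear genes of oxidative phosphorylation, -0.34 to 0.0015 for chromatin assembly and remodelling, -0.21 to 0.43 for p53 targets and DNA damage, -0.37 to -0.084 for Wnt ligands, receptors and secreted antagonists, 0.22 to 1.12 for blood, immune and endothelial cell markers and -0.90 to -0.22 for sperm markers. Without NI 1 and 3, log2 fold changes turned to Cox6b2 0.62, Omt2b 1.42, Rps27l 1.08, Cox8a 0.68, Atp5g1 0.62, Dppa3 1.15, Tex19.1 -0.58, Xaf1 0.83, Mdm4 0.43, Hsp90aa1 0.11, Dbf4 -0.082, Hist1h2ao 0.21 and Hist1h4c 2.55. Without Ctrl 1, 3, 5 and 7, log2 fold changes turned to Obox5 -0.022, Omt2b 0.089, Zbed3 -0.34, Dppa3 0.61, H2afz 0.53, Mdm4 0.43, Chek1 -0.25, Hsp90ab1 -0.12, Csnk1a1 -0.089, Rspo2 -0.19, Serpine2 -0.50, Esr2 -0.28, Gmnn 0.49, Dbf4 -0.12, Mpc1 0.60, Btg4 -0.16 and Rps2 0.14. With limma-voom with quality weights, log2 fold changes turned to Tex19.1 -0.23, Ldhc -1.28 and Hist1h4c 1.78. With all 36 libraries in the fit, log2 fold changes turned to Mdm4 0.11, Gmnn 0.050 and Rps2 0.038. With RLE size factors, log2 fold changes turned to Hsp90ab1 -0.067 and Dbf4 -0.012. With DESeq2, log2 fold changes turned to Hsp90ab1 -0.066 and Dbf4 -0.012. Without Ctrl 6 and NI 3, log2 fold changes turned to Ldhc -0.34. Over single left-out libraries, log2 fold changes of genes that turned ran Omt2b -1.46 to 0.29, Atp5g1 -2.64 to 0.32, Dppa3 -1.27 to 0.53, H2afz -1.27 to 0.19, Tex19.1 -0.23 to 0.91, Mdm4 -0.47 to 0.16, Hsp90ab1 -0.17 to 0.26, Ldhc -0.49 to 0.53, Gmnn -0.51 to 0.073, Dbf4 -0.22 to 0.14 and Rps2 -0.47 to 0.078. In all, 1476 values kept their direction and their side of the threshold, 172 passed it under an alternative, and 67 changed sign, in 27 results. The cause was not tested. No paired analysis was possible because the labels carry no replicate numbers, and numbers here follow accession order. The median SE of a log2 difference was 0.67, so small differences were not detectable at this spread. Large ones also failed to pass, such as Sfrp2 at -7.06 with an edgeR adjusted p of 0.121.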
